A study of Petromyzon marinus and Lampetra planeri with 28 samples.

Results

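The transcriptome of the sea lamprey (*Petromyzon marinus*) dorsal neural tube (DNT) was compared between Tahara stage (T) 21 and T18. All RNA-seq libraries of DNTs at these stages were used, which are 6 of the 28 samples of the series, 3 for each stage. The neural folds converge at T18, and at T21 neural crest (NC) cells are leaving the neural tube, so the comparison asks which genes differ between DNTs with premigratory NC and DNTs with late-delaminating NC. Each library was made from poly(A) RNA of DNTs cut with an eyelash knife from the heads of embryos obtained by in vitro fertilisation, pooled over 30 embryos at T18 and 35 at T21. The tissue holds the dorsal part of the neural tube, premigratory and delaminating NC and some adjoining dorsal tissue, so it is not a pure NC preparation. No allele, treatment or batch is given in the labels. The labels number the libraries but do not say that they came from separate spawnings, so p-values measure the spread between these pools. In bulk tissue, fewer cells of a type and less RNA per cell cannot be told apart.

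The neural tube is patterned along its dorsoventral axis by Hedgehog from the floor plate and notochord below and by BMP and Wnt signals from the roof plate and epidermis above. Along the head-to-tail axis, Fgf, Wnt and retinoic acid signals set the domains of the Hox genes, which mark the hindbrain and trunk, while Otx and Emx factors mark the forebrain and midbrain. The NC arises at the dorsal midline, undergoes an epithelial-to-mesenchymal transition, enters a matrix of hyaluronan, fibronectin and collagens, and gives rise to cartilage, pigment cells, glia and peripheral neurons.

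Between 12172421 and 91015285 fragments were counted per library, and replicate 3 of each stage was the deepest. Of 72171 loci in the authors' transcriptome, 58182 had a count in these 6 libraries and 25317 were counted well enough to be tested. Each locus was tested with the quasi-likelihood test of edgeR, in which the 2 T20 libraries helped to estimate the spread, and was called at an adjusted p under 0.05. Of the tested loci 33.6% were called, 18.9% higher and 14.7% lower at T21. Levels are given as the authors' normalised counts, for replicates 1, 2 and 3 in turn, and fold changes are log2 values of T21 over T18 with their SE. The SE was derived from the test, as the size of the log2 fold change divided by the square root of its F statistic. Normalised counts are not corrected for length, so that they compare libraries and not genes. A gene symbol was available for 4996 loci, of which 4693 were tested. Most symbols stood in tables that the study made of changing loci in these same libraries. Among them 80.4% were called, 55.3% higher and 25.1% lower, against 10.7% and 12.3% of the loci without a symbol. The counts of each gene list below are therefore read against the named loci, and they are no unbiased share of a family. Nor are they independent evidence of its direction, since most names come from these same libraries. Several loci can be pieces of one gene or paralogues. Of 700 symbols with at least 2 called loci, 196 had loci called in both directions, so each value belongs to its locus and not to every locus of that name. A locus joining several genes carries all their names, separated by a slash. A dagger marks a locus outside the rule for naming loci, named after its values were seen.

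Increases were larger than decreases. The median log2 fold change of the loci called higher was 1.62 and that of the loci called lower was -0.68. A log2 fold change of more than 3 in size was found for 1105 loci called higher and 317 called lower, and one of more than 5 for 361 and 90. The libraries of the stages did not overlap at 4764 of the 4792 loci called higher and at 3674 of the 3717 called lower. With 3 libraries a stage a call mostly goes with such separation, so these counts are no separate evidence of a difference. Loci called lower were the more abundant, with a median of 1203 normalised counts at T18, against 301.0 at T21 for loci called higher. No fragment was counted in the other stage for 83 of the loci called higher and 18 of those called lower. The tested loci were split by mean level into 4 groups of equal size. Of the third group 28.1% were called higher and 12.7% lower, and of the fourth, the most abundant, 21% were called higher and 33.6% lower. With upper-quartile scaling the median over the tested loci was -0.18 in place of -0.03. That scaling gave 4051 loci called higher and 5258 lower, so the share of calls that were higher went from 56.3% to 43.5%. The split between higher and lower calls thus depends on the scaling. Fold changes below are those of the TMM scaling, relative to a median of -0.03 over all tested loci. The median of the named loci, from which every list is drawn, was 0.63, and that of loci without a symbol was -0.09, so a list median is read against 0.63.

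**Figure D1:**
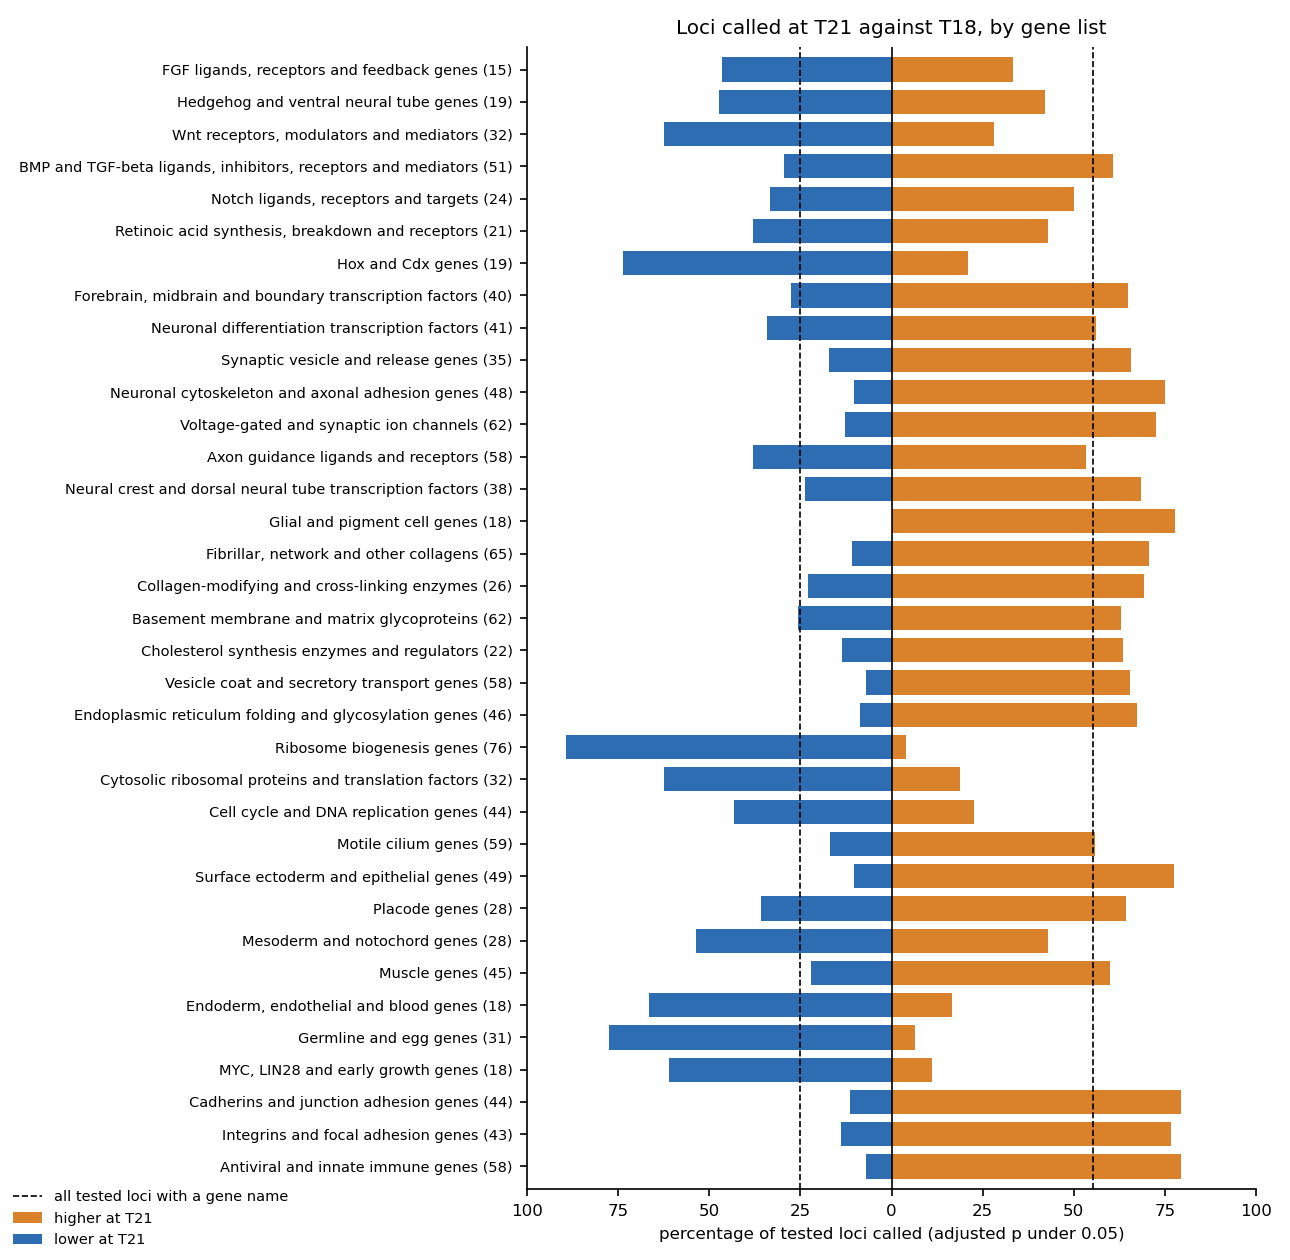
Percentage of the tested loci of each of the 35 gene lists that were called higher (right, orange) or lower (left, blue) at T21 than at T18, with the number of loci tested beside each name. The dashed lines mark the same percentages over all tested loci with a gene name, 55.3% higher and 25.1% lower. Ribosome biogenesis, germline, Hox and Cdx, and endoderm genes reach furthest to the left, and surface ectoderm, glial and pigment, cadherin and innate immune genes reach far to the right.

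Markers of dorsal neural tube and neural plate were counted at both stages, although several of their loci had few counts at T18. All 9 markers of dorsal neural tube and neural plate examined (*Sox1*, *Zic1*, *Zic4*, *Pax7*, *Msx2*, *Pax6*, *Wnt1*, *Wnt3* and *Nr2f1*) had a locus, 1 of 3 *WNT3* loci was at 0 in all T18 libraries and none at T21, and of 17 tested loci 13 were called higher and 2 lower. Among named loci 55.3% were called higher and 25.1% lower. The summed level of the 17 loci was 12869 to 13520 normalised counts at T18 and 21984 to 23591 at T21. Most of the T18 sum came from loci named for *Sox1* and *Zic1*. *NR2F1* (XLOC_031246†) was at 77.4, 24.0 and 29.7 at T18 and 420, 441 and 398 at T21, whereas *MSX2* (XLOC_017489†) was already at 1261, 1302 and 1214 at T18. Both lowered dorsal loci were *Pou4f1*/*zic1*, and no other *Zic1* locus was in the set. *Pou4f1*/*zic1* (XLOC_044133†) fell from 3533, 3983 and 3858 to 1918, 1729 and 1888 (-1.06 ± 0.17, adjusted p = 6.8e-04). *Pou4f1*/*zic1* (XLOC_044134†) fell by a similar size (-1.14 ± 0.28, adjusted p = 0.014). Loci named for *Sox1*, a SoxB1 factor of the neural plate, differed. *sox1* (XLOC_047453†) was barely counted at T18 and abundant at T21, at 9.99, 16.5 and 20.8 at T18 and 1691, 1631 and 1672 at T21 (log2 fold change 6.53 ± 0.17 (SE), adjusted p = 3.2e-10). *SOX1* (XLOC_048580†) stood at 4587, 4626 and 4356 at T18 and 5094, 5061 and 5157 at T21 and was not called (0.16 ± 0.07, adjusted p = 0.11), although with the 6 libraries alone the adjusted p was 0.022. The ventral set (*Shh*, *Shha*, *Foxa2*, *Nkx2-1*, *Nkx6-1* and *Nkx6-2*) went the other way, with 5 of 6 tested loci called lower by edgeR and 0 higher, also at an unadjusted p under 0.05 and with DESeq2. Its summed level over 7 loci, 1 of them not tested, was 1265 to 2017 at T18 and 175.9 to 251.0 at T21, where 1 *FOXA2* locus was at 0. How far the dissected region differed between the stages was not tested.

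Lists of other tissues that a dorsal dissection could include also moved. The summed level of the surface ectoderm and epithelial list was 96398 to 99762 at T18 and 228524 to 239033 at T21, and that of the muscle list was 37115 to 39994 and 51060.3 to 58836. Single loci weighed heavily in the first sum. *CLDN3* (XLOC_061419) was at 51593 to 61215.5 at T18 and 23443 to 41638 at T21. *Krt8* (XLOC_028492) was at 246 to 748 at T18 and 67556 to 78602 at T21. The muscle sum rested largely on 2 merged loci. *cfl2*/*RYR2* (XLOC_042214†) was at 24733 to 27524 at T18 and 27921 to 32988 at T21 and was not called (0.19 ± 0.09, adjusted p = 0.12). *CAPN3*/*US11* (XLOC_042257†) was at 4184 to 4574 at T18 and 8414 to 10079 at T21. Sums were lower at T21 for the mesoderm and notochord list, at 40912 to 44458 against 12654 to 13448, for the endoderm, endothelial and blood list, at 6114 to 7620.4 against 2457 to 2584, and for the germline and egg list, at 7850.2 to 8494 against 4799 to 5169.6. The placode list had sums of 11594 to 12317 and 11352 to 12258, which overlapped. The part of these tissues in the differences described below was not tested, and the members of each are described where they belong.

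**Figure D2:**
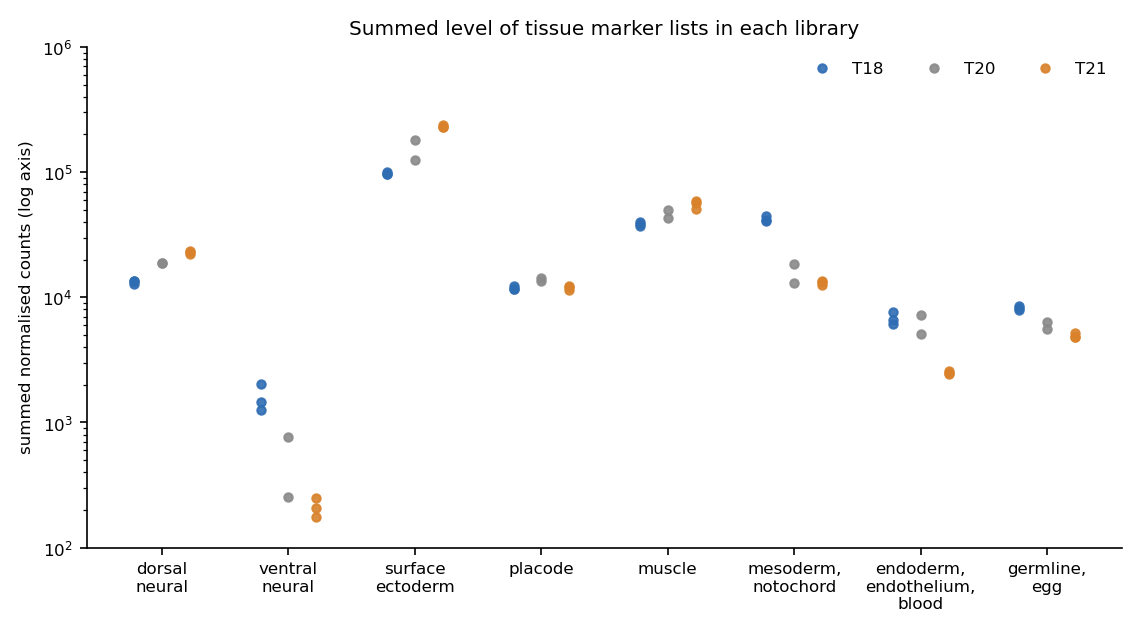
Summed normalised counts (log axis) of the loci of 8 lists in each library, with T18 in blue, T20 in grey and T21 in orange. The ventral neural, mesoderm, endoderm and germline sums of the 3 T21 libraries lie below those of all T18 libraries, the surface ectoderm, muscle and dorsal neural sums lie above, and the placode sums overlap.

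Genes of the posterior body axis were lower at T21. Of the 19 tested loci of Hox and Cdx genes, the regulators of trunk and hindbrain identity, 14 were called lower and 4 higher, with a median log2 fold change of -2.79. Of named loci 25.1% were called lower and 55.3% higher. The summed level was 30371 to 33401 at T18 and 4300.4 to 5244 at T21. Most of the T18 sum came from the merged loci *Cdx1*/*zgc110179* and *hox-epsilon1*/*skap-epsilon*, given below. *Cdx1*/*zgc110179* (XLOC_023058), a caudal-type activator of posterior Hox genes, stood at 11735, 12554 and 13068 at T18 and 263, 229 and 185 at T21 (log2 fold change -5.84 ± 0.23 (SE), adjusted p = 1.2e-07). Within the alpha cluster, which lies on one scaffold, the loci numbered 9, 8, 5/6 and 4 all fell. *hox-alpha9* (XLOC_005118) was counted at 318, 296 and 372 at T18 and 25.3, 18.4 and 3.70 at T21 (log2 fold change -4.78 ± 0.55 (SE), adjusted p = 5.2e-05), and log2 fold changes were -3.49 ± 0.43 for *Hox-alpha8* (XLOC_005119†), -2.79 ± 0.27 for *hox-alpha5*/*hox-alpha6* (XLOC_005120†) and -4.45 ± 0.25 for *hox-alpha4* (XLOC_005121†). In the same cluster *hox-alpha2* (XLOC_005123) stood higher at T21, at 1003, 799 and 697 at T18 and 1564, 1729 and 1402 at T21 (0.90 ± 0.13, adjusted p = 1.2e-04). *hox-epsilon1*/*skap-epsilon* (XLOC_006403) fell as well, from 12359.7, 10192 and 8802 to 379, 209.6 and 259 (log2 fold change -5.25 ± 0.40 (SE), adjusted p = 9.5e-05). *HOXC9* (XLOC_064711†) was at 33.7, 40.5 and 56.8 at T18 and 3.89, 0 and 0.37 at T21, a T18 to T21 ratio of 64.6 (95% exact counting interval 21.9 to 315). The delta cluster moved the other way. *hox-delta11*/*hox-delta4*/*hox-delta8* (XLOC_033547) was at 77.4, 26.4 and 17.8 at T18 and 249, 234 and 189 at T21 (log2 fold change 2.56 ± 0.45 (SE), adjusted p = 0.0011), and *hox-delta3* (XLOC_033549) and *hox-delta2* (XLOC_033552†) rose too (1.25 ± 0.27, adjusted p = 0.003 and 1.18 ± 0.38, adjusted p = 0.029). The call of the last was lost with no filter on low counts and without each of 4 libraries (adjusted p of 0.058 to 0.12). The libraries of the stages did not overlap at the Hox and Cdx loci given here, which the rule required of those without a dagger. None of the lowered loci was at 0 in all T21 libraries.

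**Figure D3:**
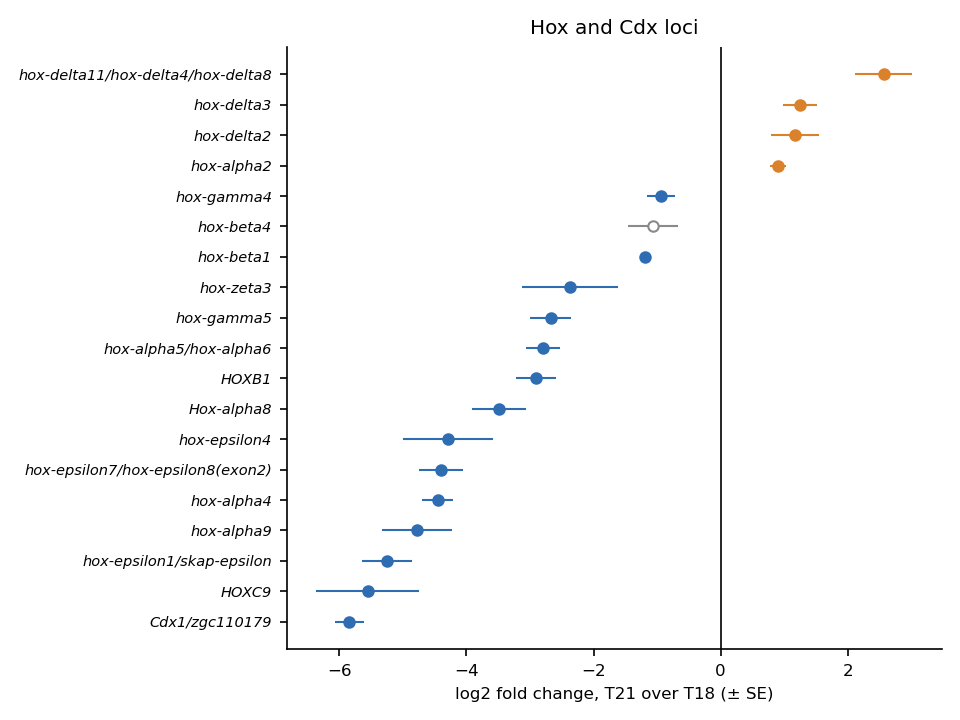
Log2 fold change of T21 over T18 (± SE) of the tested Hox and Cdx loci, ordered by size, with filled points for loci called at an adjusted p under 0.05. Of the 19 loci, 14 lie below 0 as called and 4 above, the latter from the alpha and delta clusters.

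Mesoderm and notochord genes moved in both directions, with the largest differences among those that fell. Of the 28 tested loci of the mesoderm and notochord list, 15 were called lower and 12 higher (median -0.62), against 25.1% and 55.3% of named loci. *tbx6* (XLOC_036010), a T-box factor of presomitic mesoderm, was at 644, 879 and 1437 at T18 and 3.89, 1.53 and 1.11 at T21 (-9.22 ± 0.70, adjusted p = 1.6e-05). *meox2* (XLOC_018835†), a homeobox factor of somites, was at 1115, 998 and 814 at T18 and 25.3, 26.0 and 12.2 at T21 (log2 fold change -5.76 ± 0.26 (SE), adjusted p = 7.2e-09). *FOXC1* (XLOC_040843†), a forkhead factor of paraxial and head mesoderm, was at 4601, 4560.5 and 5299 at T18 and 105, 106 and 74.0 at T21 (log2 fold change -5.76 ± 0.35 (SE), adjusted p = 1.4e-05). At each of the 3, every T21 library lay far below every T18 library, although the rule had required no overlap at *tbx6*. Smaller decreases were found for *SCX* (XLOC_010359†), a tendon and somite factor (-3.30 ± 0.22, adjusted p = 1.1e-06), and *pdgfra* (XLOC_027032†), the PDGF receptor of mesenchyme (-2.49 ± 0.14, adjusted p = 6.4e-08). Loci that rose included the T-box factor *tbx20* (XLOC_010616) (4.11 ± 0.41, adjusted p = 5.9e-06), *MATN1* (XLOC_005457), a cartilage matrix protein (2.74 ± 0.42, adjusted p = 2.6e-04), and *ism1* (XLOC_011744), which encodes a secreted protein (2.71 ± 0.28, adjusted p = 9.0e-06).

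Retinoic acid genes moved in both directions. Of 21 tested loci, 9 were called higher and 8 lower (median 0.70), against 55.3% and 25.1% of named loci. Enzymes that break down retinoic acid moved in opposite directions. *CYP26A1* (XLOC_020696) was at 582, 975 and 1259 at T18 and 13.6, 30.6 and 15.2 at T21 (log2 fold change -5.67 ± 0.38 (SE), adjusted p = 9.8e-07), while *CYP26C1* (XLOC_020698), which lies on the same scaffold (scaf_00018:7823966-7844814, against scaf_00018:7789727-7800958), was at 232, 318 and 427 at T18 and 4164, 5091 and 4505 at T21 (log2 fold change 3.76 ± 0.20 (SE), adjusted p = 5.7e-07). The first was thus abundant only at T18, and the second was counted at both stages. The naming rule required that the libraries of the stages did not overlap at either. Of the enzymes that act on retinol, retinaldehyde or carotenoids, *Rdh10* (XLOC_002072), a retinol dehydrogenase, fell from 747, 913 and 1167 to 302, 285 and 313 (-1.67 ± 0.17, adjusted p = 6.4e-06), as did *Bco2* (XLOC_030205), a carotenoid-cleaving oxygenase (-1.65 ± 0.33, adjusted p = 0.0032), and *DHRS3* (XLOC_042648†), which reduces retinaldehyde to retinol (-1.14 ± 0.22, adjusted p = 0.0014). By contrast *rdh10a* (XLOC_013880†) rose (0.59 ± 0.15, adjusted p = 0.0074), as did another carotenoid oxygenase locus, *BCO2* (XLOC_030355†) (1.91 ± 0.23). *LRAT* (XLOC_038186), which esterifies retinol for storage, rose from 1.25, 0 and 2.16 to 712, 875 and 733 (log2 fold change 8.87 ± 0.36 (SE), adjusted p = 3.7e-09). Among receptors, *raraa*/*RARB* (XLOC_006819) rose (3.51 ± 0.15, adjusted p = 5.3e-09), *raraa* (XLOC_004954†) fell (-0.71 ± 0.09, adjusted p = 4.5e-05) and *rarga* (XLOC_018778†) fell (-1.34 ± 0.08, adjusted p = 8.3e-08), and the binding protein *crabp2* (XLOC_048304†) rose (3.21 ± 0.13, adjusted p = 3.0e-09).

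FGF genes were mixed, with 5 of 15 tested loci called higher and 7 lower (median -0.52), against 55.3% and 25.1% of named loci. *Fgf3* (XLOC_001943), a ligand of hindbrain and otic development, was at 43.7, 372 and 515 at T18 and 0, 6.12 and 3.33 at T21 (log2 fold change -6.53 ± 1.16 (SE), adjusted p = 0.0037). T18 replicate 1 was far below the other T18 libraries, and all 3 still lay above the T21 libraries, as the naming rule required. *FGF8* (XLOC_017586†), the ligand of the midbrain-hindbrain boundary, was at 653, 624 and 1045 at T18 and 918, 1002 and 860.1 at T21 and was not called (0.23 ± 0.19, adjusted p = 0.43), although T18 replicate 3 stood above the other T18 libraries and without it the adjusted p was 0.014. Ligands that rose were *FGF9*/*MLH* (XLOC_003810) (4.69 ± 0.45, adjusted p = 4.4e-06), *Fgf10* (XLOC_008086) (2.67 ± 0.63, adjusted p = 0.0052) and *fgf1* (XLOC_027344) (1.01 ± 0.15, adjusted p = 1.9e-04). The receptor-like *FGFRL1* (XLOC_017609) fell (-1.38 ± 0.18, adjusted p = 5.6e-05), and of the genes that FGF signalling switches on, *Etv4* (XLOC_018831†) fell (-0.85 ± 0.12, adjusted p = 9.4e-05) and *Spry1* (XLOC_027164†) rose (0.92 ± 0.21, adjusted p = 0.0071), a call that was lost without either T20 library (adjusted p = 0.054 and 0.06). *Spred2* (XLOC_038068†), another feedback gene of the list, fell (-0.60 ± 0.19, adjusted p = 0.029), as did the loci named for *Flrt3*.

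In the Hedgehog pathway the ligands were lower and some genes that bind the ligand or transmit its signal were higher. Of 19 tested loci, 9 were called lower and 8 higher (median -0.43), against 25.1% and 55.3% of named loci. *shha* (XLOC_006470) was at 192, 159 and 292 at T18 and 5.84, 0 and 1.85 at T21 (log2 fold change -6.62 ± 0.64 (SE), adjusted p = 6.8e-06), and the other ligand locus, *SHH* (XLOC_005505†), at 86.2, 112 and 177 at T18 and 13.6, 7.65 and 8.51 at T21 (log2 fold change -3.75 ± 0.48 (SE), adjusted p = 4.9e-05). *FOXA2* (XLOC_029647), a forkhead factor of floor plate, notochord and endoderm, was at 317, 509.6 and 733 at T18 and 0 in every T21 library, at least 89.1-fold lower against a floor of 3 counts per library, although its adjusted p went to 0.09 with no filter on low counts and to 0.086 with the replicate block. *Foxa2* (XLOC_026423) was at 215, 283 and 436 at T18 and 11.7, 4.59 and 12.6 at T21 (log2 fold change -4.91 ± 0.57 (SE), adjusted p = 6.1e-05). In each of these 4 loci the highest T21 library was below the lowest T18 library, as the naming rule required except for *SHH*. The ventral progenitor factor *NKX6-1* (XLOC_020432†) and the receptor *ptc* (XLOC_024828†), itself induced by Hedgehog, fell less (-1.45 ± 0.30 and -1.66 ± 0.21). *NKX6-2* (XLOC_017525†) was not called (-0.43 ± 0.31, adjusted p = 0.34). Other cell-surface genes that bind the ligand were higher. Of the loci for HHIP, a decoy that retains it, *HHIP* (XLOC_027039) was at 9.99, 4.96 and 8.92 at T18 and 177, 155 and 135 at T21 (4.24 ± 0.35, adjusted p = 1.2e-06) and *HHIP* (XLOC_027218†) rose by 3.26 ± 0.70. The co-receptors *CDON* (XLOC_030292) and *GAS1* (XLOC_031082) rose (1.63 ± 0.09, adjusted p = 3.6e-08 and 1.21 ± 0.09, adjusted p = 7.0e-07), as did the transcriptional mediator *Gli3* (XLOC_006831†) (0.60 ± 0.10, adjusted p = 3.5e-04).

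**Figure D4:**
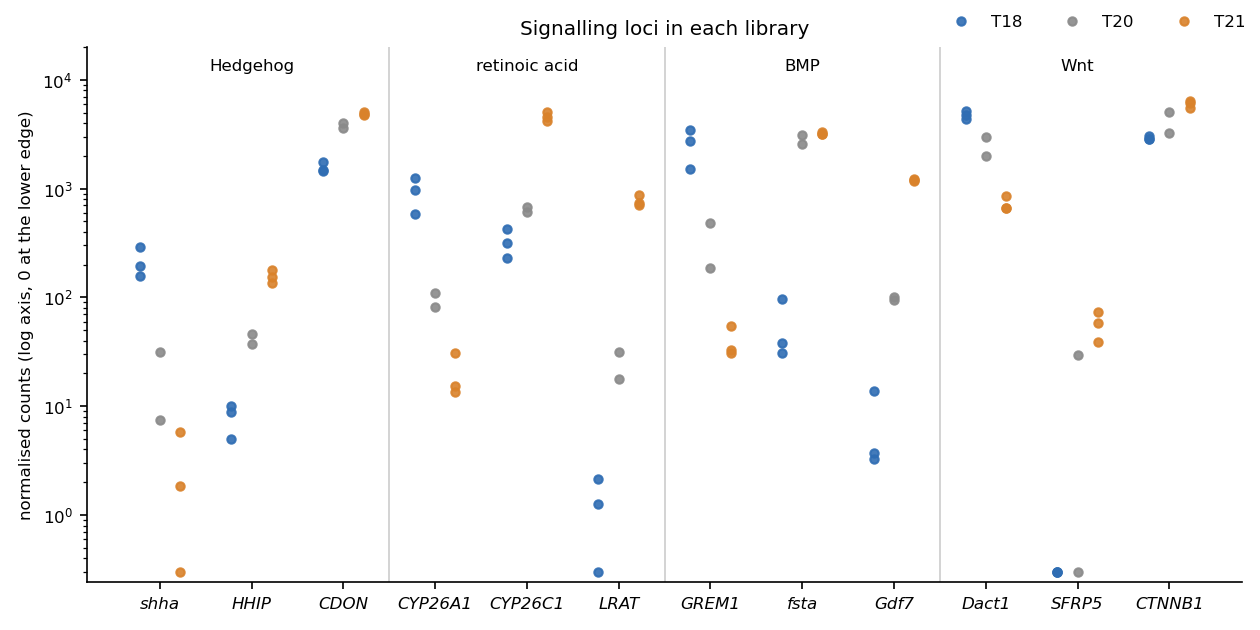
Normalised counts (log axis, with 0 drawn at the lower edge) of 12 loci of signalling pathways in each library at T18 (blue), T20 (grey) and T21 (orange). *shha*, *CYP26A1*, *GREM1* and *Dact1* are high at T18 and low at T21, whereas *HHIP*, *CYP26C1*, *LRAT*, *fsta*, *Gdf7*, *CDON*, *SFRP5* and *CTNNB1* are higher at T21. The T18 and T21 libraries do not overlap, as the naming rule required.

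Receptors, modulators and mediators of Wnt signalling were mostly lower at T21, with 20 of 32 tested loci called lower and 9 higher (median -0.66), against 25.1% lower and 55.3% higher among named loci. *Dact1* (XLOC_011863), a Dishevelled-binding inhibitor, was at 4713, 4351 and 5136 at T18 and 860.0, 664 and 668 at T21 (log2 fold change -2.72 ± 0.16 (SE), adjusted p = 3.5e-07), while *dact1* (XLOC_038012†) rose (0.47 ± 0.11, adjusted p = 0.0042). *TCF7L2* (XLOC_014951), a TCF factor that carries the signal in the nucleus, was at 481, 676 and 998 at T18 and 115, 84.1 and 113 at T21 (log2 fold change -2.81 ± 0.27 (SE), adjusted p = 5.9e-06). *rspo2* (XLOC_037520†), a secreted enhancer of the pathway, fell (-2.28 ± 0.15, adjusted p = 2.1e-07), as did *FZD2* (XLOC_018783†), a Frizzled receptor (-1.03 ± 0.07, adjusted p = 4.3e-07), and *WLS* (XLOC_041425†), which carries Wnt proteins to the cell surface (-0.95 ± 0.10, adjusted p = 6.8e-06). *Fzd8* (XLOC_005247) was at 111, 557 and 999.8 at T18 and 50.6, 7.65 and 27.8 at T21 (-4.37 ± 0.99, adjusted p = 0.016), a call that was lost with no filter on low counts and without T21 replicate 3 (adjusted p = 0.066 and 0.055). Secreted antagonists rose and fell. *SFRP1*/*SFRP5* (XLOC_020509†) fell (-2.03 ± 0.19, adjusted p = 3.3e-05). *SFRP5* (XLOC_017685) was at 0 in every T18 library and at 38.9, 73.4 and 58.1 at T21, at least 15.2-fold higher, and *SOSTDC1* (XLOC_006932†) likewise went from 0 to 42.8, 36.7 and 22.6, at least 9.08-fold higher. *wif1* (XLOC_066501†) rose from 2.5, 3.30 and 0.541 to 37.0, 49.0 and 46.3 (log2 fold change 4.64 ± 0.66 (SE), adjusted p = 1.2e-04). *CTNNB1* (XLOC_005251), the beta-catenin locus, was at 3035, 2849 and 2863 at T18 and 6331, 6164 and 5485 at T21 (log2 fold change 1.02 ± 0.13 (SE), adjusted p = 7.4e-05). *ASPSCR1*/*Notum* (XLOC_003862), a merged locus that includes the Wnt-inactivating enzyme *Notum*, and *axin1* (XLOC_021511†), a scaffold of beta-catenin breakdown, rose as well (1.71 ± 0.31, adjusted p = 9.0e-04 and 0.72 ± 0.10, adjusted p = 1.2e-04), and *AXIN1* (XLOC_003272†) fell (-2.08 ± 0.36, adjusted p = 5.7e-04).

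BMP and TGF-beta genes were higher on balance, with 31 of 51 tested loci called higher and 15 lower (median 0.97), near the shares of all named loci. Ligands known from the roof plate of jawed vertebrates rose. *Gdf7* (XLOC_001741) was at 3.75, 3.30 and 13.8 at T18 and 1228, 1190.2 and 1167 at T21 (log2 fold change 6.98 ± 0.32 (SE), adjusted p = 2.6e-08). *BMP4* (XLOC_011900) was at 0, 0.826 and 2.16 at T18 and 64.2, 113 and 82.9 at T21 (log2 fold change 5.80 ± 0.58 (SE), adjusted p = 6.8e-06). *Bmp7* (XLOC_002109†) was at 92.4, 60.3 and 32.4 at T18 and 782, 744 and 781 at T21 (3.73 ± 0.29, adjusted p = 2.5e-06). At each, every T18 library lay far below every T21 library, although the rule had required no overlap at *Gdf7* and *BMP4*. Among secreted antagonists, *fsta* (XLOC_008338), a follistatin, was at 97.4, 38.0 and 30.8 at T18 and 3148, 3205 and 3336 at T21 (log2 fold change 6.06 ± 0.37 (SE), adjusted p = 1.4e-05). *GREM1* (XLOC_042234), a DAN-family inhibitor, fell from 1509, 2720.4 and 3480.3 to 54.5, 30.6 and 32.6 (log2 fold change -6.15 ± 0.57 (SE), adjusted p = 2.6e-04). *BMPER* (XLOC_018504†) also rose (3.04 ± 0.21, adjusted p = 1.2e-06). The left-right and axial ligand locus *Gdf1* (XLOC_068734) was at 30.0, 58.6 and 93.8 at T18 and 0 in all T21 libraries, at least 10.4-fold lower. On the TGF-beta side, *TGFB2* (XLOC_038148†) (3.57 ± 0.44, adjusted p = 3.5e-05) and the receptor *TGFBR2* (XLOC_028519†) (4.77 ± 0.51, adjusted p = 1.3e-05) rose. BMP and activin receptors that fell included *ACVR1* (XLOC_006687) (-1.31 ± 0.17, adjusted p = 6.5e-05), *ACVR2B* (XLOC_007006†) (-1.24 ± 0.09, adjusted p = 3.9e-07) and *Bmpr1a* (XLOC_040190†) (-1.08 ± 0.26, adjusted p = 0.014), and *Bmpr1b* (XLOC_015054†) rose (0.54 ± 0.08, adjusted p = 1.5e-04). The BMP target genes *ID2* (XLOC_019620†) and *id3* (XLOC_000035†) rose slightly (0.51 ± 0.08 and 0.88 ± 0.08).

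Of 24 tested loci of Notch genes, 12 were called higher and 8 lower (median 0.27), against 55.3% and 25.1% of named loci. Upper-quartile scaling gave 9 and 9, so the list showed no common direction. The ligand *DLL1* (XLOC_029536) was at 353, 373 and 586 at T18 and 149.8, 125 and 106 at T21 (log2 fold change -1.83 ± 0.26 (SE), adjusted p = 1.1e-04), and the fringe enzyme *Lfng* (XLOC_003470†) and the target repressor *HES1* (XLOC_036684†) fell with it (-0.62 ± 0.11, adjusted p = 9.6e-04 and -0.97 ± 0.09, adjusted p = 4.3e-06). The ligand *Jag1* (XLOC_060286†) rose (2.22 ± 0.27, adjusted p = 3.6e-05). Of the ligases and adaptors, *Mib2* (XLOC_012747) (5.11 ± 0.92, adjusted p = 0.0011) and *Dtx4* (XLOC_009243) (3.15 ± 0.21, adjusted p = 3.3e-07) rose and *MIB* (XLOC_033593) (-1.23 ± 0.28, adjusted p = 0.004) and *NUMBL* (XLOC_029446) (-1.32 ± 0.33, adjusted p = 0.0066) fell, so the Mind bomb ligases moved in opposite directions. So did the Numb-like loci, since *Numbl* (XLOC_011584†) rose (0.78 ± 0.11, adjusted p = 1.0e-04).

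Regional transcription factors of the brain moved in both directions. Of 40 tested loci in this list, 26 were called higher and 11 lower (median 2.28, or 2.05 with loci at 0 in one stage set to their bound). Of named loci 55.3% were called higher and 25.1% lower. *SIX3* (XLOC_011752), a factor of the anterior forebrain and eye, was at 89.9, 289.9 and 393 at T18 and 3.89, 0 and 2.59 at T21 (log2 fold change -6.79 ± 0.73 (SE), adjusted p = 3.6e-05). *gsc* (XLOC_034561), a factor of axial mesoderm and the anterior plate, was at 25, 86.7 and 170.3 at T18 and 1.95, 0 and 0.37 at T21, a T18 to T21 ratio of 256 (95% exact counting interval 70.6 to 2116). T18 replicate 1 had the lowest T18 level at both. *emx1* (XLOC_020692), *Rx* (XLOC_035083†) and *otx2* (XLOC_057744†), of telencephalon, eye field and anterior brain, fell (-3.46 ± 0.29, adjusted p = 1.6e-06, -3.04 ± 0.32, adjusted p = 9.6e-06 and -2.82 ± 0.41, adjusted p = 0.0022), as did *FOXB1* (XLOC_008449†) (-2.49 ± 0.14, adjusted p = 6.0e-08). The forebrain and eye factor rose at *pax6a* (XLOC_001848) (6.47 ± 0.27, adjusted p = 4.3e-09) and *pax6* (XLOC_016891†) (2.57 ± 0.30, adjusted p = 5.5e-05). Also among those that rose, *eng2a* (XLOC_006778†), an engrailed factor of the midbrain-hindbrain boundary, was at 21.2, 11.6 and 20.8 at T18 and 735, 545 and 584 at T21 (log2 fold change 5.06 ± 0.26 (SE), adjusted p = 2.1e-08), and its partner *PAX5* (XLOC_040186†) at 64.9, 17.3 and 17.6 at T18 and 2045, 1966 and 2137 at T21 (log2 fold change 6.19 ± 0.53 (SE), adjusted p = 1.2e-04). *mafb* (XLOC_040707†), which marks hindbrain segments and migrating NC, was at 66.2, 21.5 and 28.1 at T18 and 1695, 1642 and 1875 at T21 (log2 fold change 5.62 ± 0.37 (SE), adjusted p = 9.1e-06). The Iroquois factor *Irx3* (XLOC_010609) was at 1.25, 0 and 1.08 at T18 and 130.4, 50.5 and 100.3 at T21 (log2 fold change 6.61 ± 0.64 (SE), adjusted p = 5.1e-06), and *IRX2* (XLOC_010339†) and *LMX1B* (XLOC_054337†) rose by 6.31 ± 0.49 and 6.38 ± 0.53. *HMX3* (XLOC_017789) was at 0, 0 and 0.541 at T18 and 60.3, 73.4 and 47.7 at T21, a ratio of 153 (95% exact counting interval 42.0 to 1276).

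Genes of the cranial placodes, the ectodermal thickenings that form sense organs and ganglia, had 18 of 28 tested loci called higher and 10 lower (median 1.63, or 1.55 with bounds), with 6 lower when T18 replicate 2, T21 replicate 2 or T21 replicate 3 was left out. Of named loci 55.3% were called higher and 25.1% lower. *pax2a* (XLOC_014823), of the otic placode and the midbrain-hindbrain boundary, was at 30.0, 11.6 and 13.2 at T18 and 377, 319.7 and 415 at T21 (log2 fold change 4.45 ± 0.31 (SE), adjusted p = 3.3e-07). *SIX4* (XLOC_029664†), a homeobox factor of placodes, rose (2.82 ± 0.22, adjusted p = 6.4e-07), whereas another locus, *SIX4* (XLOC_042136†), fell (-0.85 ± 0.15, adjusted p = 7.5e-04). *OTOR* (XLOC_034339), which encodes a secreted protein of the inner ear, and *Gbx1* (XLOC_006821), a homeobox factor of the anterior hindbrain, fell (-2.61 ± 0.39, adjusted p = 1.9e-04 and -1.66 ± 0.09, adjusted p = 2.6e-08), while another locus of the latter, *GBX1* (XLOC_005405†), rose (2.41 ± 0.43, adjusted p = 0.0013).

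Neuronal genes included large differences in both directions. Of 41 tested loci of neuronal transcription factors, 23 were called higher and 14 lower (median 0.73), the first a share near that of all named loci. *POU4F2* (XLOC_027069), a factor of sensory and retinal neurons, was at 0, 0 and 1.89 at T18 and 247, 297 and 271 at T21 (log2 fold change 7.75 ± 0.62 (SE), adjusted p = 1.5e-06). *Onecut1*/*Onecut3* (XLOC_015645†) was at 1.25, 2.48 and 2.16 at T18 and 189, 196 and 264 at T21 (log2 fold change 6.62 ± 0.38 (SE), adjusted p = 5.5e-08). *Neurog2* (XLOC_040165†), the proneural factor of sensory ganglia, was at 43.7, 38.0 and 23.3 at T18 and 401, 416 and 292 at T21 (3.45 ± 0.25, adjusted p = 4.4e-07). *ATOH1* (XLOC_014883), a proneural factor of dorsal progenitors, rose by 8.54 ± 0.74 and *PRDM12* (XLOC_055725), of sensory progenitors, by 7.98 ± 0.43. *NEUROD1* (XLOC_005286†), which drives neuronal differentiation, was at 0 in every T18 library and at 37.0, 27.5 and 31.5 at T21, at least 8.54-fold higher. Those that fell included *lhx1* (XLOC_009428), a LIM factor of interneurons and of axial mesoderm, at 155, 168 and 246 at T18 and 1.95, 6.12 and 1.85 at T21 (log2 fold change -6.07 ± 0.55 (SE), adjusted p = 2.8e-06). *PRDM14* (XLOC_013491), a regulator of pluripotent and germ cells in mouse, was at 1641, 2188 and 2325 at T18 and 54.5, 47.4 and 59.2 at T21 (log2 fold change -5.23 ± 0.43 (SE), adjusted p = 5.2e-05). *CBFA2T3* (XLOC_053316), a co-repressor, fell as well (-3.54 ± 0.19, adjusted p = 4.1e-08), and a second locus, *CBFA2T3* (XLOC_022407†), rose (1.06 ± 0.13, adjusted p = 5.0e-05).

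Genes of the differentiated neuron were more often higher than lower, as were named loci (55.3% and 25.1%). Of 35 tested loci of synaptic vesicle and release genes, 23 were called higher and 6 lower (median 0.84). Of 48 loci of the neuronal cytoskeleton and axonal adhesion, 36 were called higher and 5 lower (median 1.74, or 1.63 with bounds), the lower count ranging from 2 to 8 when single libraries were left out. Of 62 loci of ion channels, 45 were called higher and 8 lower (median 1.98). *SNAP25* (XLOC_063532), a core protein of vesicle fusion, was at 2.5, 0 and 5.95 at T18 and 33.1, 65.8 and 79.2 at T21 (log2 fold change 4.05 ± 0.85 (SE), adjusted p = 0.0032), and the synaptotagmin locus *SYT10*/*SYT9* (XLOC_016909) at 0, 2.48 and 7.57 at T18 and 101, 112 and 111 at T21 (log2 fold change 4.54 ± 0.70 (SE), adjusted p = 3.5e-04), with *SYT14* (XLOC_034566) rising by 3.56 ± 0.21. The neuroligin loci *NLGN3*/*NLGN4X* (XLOC_000632) and *Nlgn4l* (XLOC_046273), postsynaptic adhesion genes, rose by 4.98 ± 0.33 and 4.98 ± 0.52, and *DPYSL2* (XLOC_017688), which acts on microtubules of growing axons, was at 8.74, 13.2 and 7.84 at T18 and 224, 257 and 243 at T21 (4.61 ± 0.42, adjusted p = 2.7e-06). *Gria4* (XLOC_050475), a glutamate receptor subunit, was at 1.25, 5.78 and 1.35 at T18 and 79.8, 88.7 and 91.8 at T21 (log2 fold change 5.03 ± 0.55 (SE), adjusted p = 1.4e-05), *GLRA2*/*Nxpe2* (XLOC_006814), which includes a glycine receptor subunit, rose by 4.62 ± 0.72 and the acid-sensing channel *asic1* (XLOC_005359) by 6.68 ± 0.31. Loci that fell included the growth-cone protein *Basp1* (XLOC_034266) and its second locus *Basp1* (XLOC_027099) (-2.78 ± 0.26, adjusted p = 3.9e-06 and -2.06 ± 0.23, adjusted p = 8.9e-05), the calcium channel subunit *Cacna2d1*/*CACNA2D2* (XLOC_012872) (-3.14 ± 0.42, adjusted p = 7.8e-05), the potassium channel locus *KCNJ12*/*Map2k6* (XLOC_003723) (-1.07 ± 0.08, adjusted p = 7.8e-07), the GABA receptor subunit *GABRA3* (XLOC_027169) (-0.95 ± 0.16, adjusted p = 3.8e-04), the leucine-rich repeat gene *LRRN2* (XLOC_023906) (-1.09 ± 0.14, adjusted p = 4.9e-05) and the kinesin light chain *KLC1* (XLOC_037969) (-0.59 ± 0.10, adjusted p = 5.7e-04). Same-named loci rose for several of these. They were the more abundant *LRRN2* (XLOC_023907†), which adjoins the lowered one (1.20 ± 0.09), *KLC1*/*PDCD2* (XLOC_026247†) (0.57 ± 0.09) and *Cacna2d1*/*DHDDS* (XLOC_028008†) (1.12 ± 0.15).

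Axon guidance genes, many of which also guide NC cells, were divided, with 31 of 58 tested loci called higher and 22 lower (median 0.60). Of named loci 55.3% were called higher, a near share, and 25.1% lower. Among the secreted cues, *NTN1*/*NTN3* (XLOC_003918†), a netrin locus, fell from 6148, 5753 and 5538 to 2220.0, 1805 and 2122 (-1.52 ± 0.19, adjusted p = 2.1e-04), and another netrin, *NTN4* (XLOC_050087†), rose from 84.9, 59.5 and 54.3 to 368, 425 and 407 (2.61 ± 0.27, adjusted p = 7.6e-06). Of the semaphorins, *Sema3d* (XLOC_038917) was at 21.2, 14.9 and 17.0 at T18 and 229.6, 285 and 281 at T21 (log2 fold change 3.90 ± 0.38 (SE), adjusted p = 5.6e-06). *SEMA5A*/*SEMA5B* (XLOC_018517) was at 77.4, 111 and 82.5 at T18 and 794, 665 and 687 at T21 (2.97 ± 0.21, adjusted p = 3.5e-07). *CD36*/*Sema3f* (XLOC_024021) fell (-1.66 ± 0.11, adjusted p = 1.5e-07). Their receptors fell at *Nrp1*/*Nrp2* (XLOC_018544), a neuropilin locus, which was at 761, 726 and 803 at T18 and 42.8, 82.6 and 30.3 at T21 (log2 fold change -4.0 ± 0.38 (SE), adjusted p = 2.1e-05). *Plxna1*/*PLXNA2*/*WNT-5A* (XLOC_024088) also fell (-3.81 ± 0.20, adjusted p = 1.1e-07). There plexins, which are semaphorin receptors, are merged with a Wnt ligand, so the count cannot be assigned to either. Other neuropilin loci rose, among them *NRP1* (XLOC_028665†) (0.87 ± 0.17). *CNTN1*/*sax-3* (XLOC_050007), a locus that includes a contactin and a Slit receptor, rose (3.46 ± 0.27, adjusted p = 7.4e-07).

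Of 38 tested loci of NC and DNT transcription factors, 26 were called higher and 9 lower (median 1.48), against 55.3% and 25.1% of named loci. *Sox9* (XLOC_013714) was at 5.00, 0 and 1.35 at T18 and 3333, 3317 and 3294 at T21 (log2 fold change 10.92 ± 1.17 (SE), adjusted p = 7.8e-04), and a further SoxE locus, *Sox9* (XLOC_003722†), at 61.2, 44.6 and 125 at T18 and 1706, 1978 and 1709 at T21 (log2 fold change 4.42 ± 0.41 (SE), adjusted p = 1.1e-04). *Foxd3* (XLOC_039546), a specifier of premigratory NC, rose by 7.14 ± 0.53. *Fli1* (XLOC_003509†), an Ets factor of NC and endothelium, was at 58.7, 32.2 and 101 at T18 and 379, 421 and 456 at T21 (2.64 ± 0.33, adjusted p = 6.2e-05). *dlxC* (XLOC_018612†), a Distal-less factor of NC and ectoderm, was at 91.2, 62.8 and 54.6 at T18 and 671, 733 and 724 at T21 (3.38 ± 0.25, adjusted p = 6.7e-07). The factors that fell included *TWIST1* (XLOC_018854) (-5.25 ± 0.51, adjusted p = 3.3e-04), of which a second locus, *TWIST1* (XLOC_006540†), was not called (-0.20 ± 0.21, adjusted p = 0.53), *Prdm1* (XLOC_000324), which acts at the neural plate border in zebrafish (-2.07 ± 0.14, adjusted p = 3.8e-07), and 2 genes of mesenchyme, *PRRX1* (XLOC_025695†) and *ZEB1* (XLOC_006700†) (-1.08 ± 0.18, adjusted p = 3.5e-04 and -0.72 ± 0.09, adjusted p = 4.6e-05). Of 18 tested loci of glial and pigment cell genes, 14 were called higher and 0 lower by edgeR (median 2.11), and 0 lower also at an unadjusted p under 0.05 and with DESeq2. The summed level of the list was 2867 to 3564 at T18 and 10666 to 11671 at T21. *EDNRB* (XLOC_023333), a receptor of migrating NC and pigment precursors, was at 18.7, 16.5 and 5.95 at T18 and 959, 1253 and 1058 at T21 (log2 fold change 6.56 ± 0.37 (SE), adjusted p = 3.0e-07). *AQP4* (XLOC_010668), a water channel of glia, was at 16.2, 32.2 and 23 at T18 and 467, 489.6 and 420.1 at T21 (log2 fold change 4.22 ± 0.29 (SE), adjusted p = 2.3e-07). *Rab27a* (XLOC_044752), which moves pigment granules, was at 52.5, 62.8 and 49.2 at T18 and 765, 848 and 763 at T21 (log2 fold change 3.84 ± 0.16 (SE), adjusted p = 4.2e-09). The neuregulin receptor *ERBB4* (XLOC_028733†) and the proteoglycan *CSPG5* (XLOC_045208†) rose by 3.13 ± 0.24 and 2.58 ± 0.18. At each glial and pigment locus given here every T21 library was above every T18 library, which the rule required of those without a dagger.

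Matrix genes were more often higher than lower, as were named loci (55.3% and 25.1%), and same-named loci of several families moved in opposite directions. Of 65 tested collagen loci, 46 were called higher and 7 lower (median 1.78), of 26 loci of collagen-modifying enzymes 18 and 6 (median 0.64), and of 62 loci of basement membrane and matrix glycoproteins 39 and 16 (median 1.98). The shares of the last list were near those of named loci. The 3 largest increases among collagens were loci of collagen VI, a microfibril of interstitial matrix, *COL6A3* (XLOC_068849), which was at 0 in all T18 libraries, *Ambp*/*Col6a4* (XLOC_006566) (11.16 ± 0.25) and *Col6a1*/*SETD1A* (XLOC_006886) (9.79 ± 0.26). The basement membrane collagens *Col4a1* (XLOC_000587†) and *COL4A6* (XLOC_000225†) rose by 2.32 ± 0.11 and 2.33 ± 0.14, and *COL11A2* (XLOC_025484†), a fibril gene of cartilage, by 3.08 ± 0.20. Loci with the name of *COL2A1*, the main collagen of cartilage and notochord, went apart. *COL2A1* (XLOC_028575) was at 513, 293 and 393 at T18 and 13.6, 15.3 and 20.4 at T21 (log2 fold change -4.51 ± 0.64 (SE), adjusted p = 6.6e-04). *COL2A1* (XLOC_005107†) was at 4104, 2601 and 2053 at T18 and 15847, 17070.3 and 15629 at T21 (log2 fold change 2.46 ± 0.22 (SE), adjusted p = 5.8e-05). Its notochord and cartilage partner *Col9a1* (XLOC_037398) fell (-2.52 ± 0.41, adjusted p = 3.5e-04), as did *COL21A1* (XLOC_002062) (-2.36 ± 0.32, adjusted p = 7.5e-05), of which another locus, *COL21A1* (XLOC_019661†), rose (2.55 ± 0.41, adjusted p = 3.4e-04). The lysyl oxidase loci, whose enzymes cross-link collagen, were split in the same manner. *LOX* (XLOC_044621) was at 195, 139.6 and 217 at T18 and 40.9, 44.4 and 45.2 at T21 (log2 fold change -2.09 ± 0.30 (SE), adjusted p = 1.3e-04). *Lox* (XLOC_031022†) was at 28.7, 22.3 and 11.9 at T18 and 142, 106 and 144 at T21 (log2 fold change 2.70 ± 0.36 (SE), adjusted p = 6.5e-05), and *LOXL3* (XLOC_017612) rose by 4.05 ± 0.32. So were the loci named *TGFBI*, a matrix adaptor. *TGFBI* (XLOC_023074) was at 1044, 771 and 931 at T18 and 107, 82.6 and 67.0 at T21 (log2 fold change -3.49 ± 0.20 (SE), adjusted p = 4.7e-08). *TGFBI* (XLOC_027215) was at 48.7, 37.2 and 21.9 at T18 and 3019.6, 3725 and 4025 at T21 (log2 fold change 6.80 ± 0.40 (SE), adjusted p = 1.1e-05). Same-named loci may be paralogues or pieces of a gene, and which they are was not tested.

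Loci of hyaluronan synthases also moved in opposite directions. *Has3* (XLOC_047665) was at 515, 288 and 262 at T18 and 15.6, 58.1 and 38.9 at T21 (log2 fold change -3.20 ± 0.56 (SE), adjusted p = 0.002). *has1* (XLOC_030256) was at 8.74, 6.61 and 10.0 at T18 and 500.0, 486 and 509.6 at T21 (log2 fold change 5.78 ± 0.39 (SE), adjusted p = 4.7e-07). Of other matrix genes, *COMP* (XLOC_031182), a thrombospondin-family protein of cartilage, was at 6.24, 14.9 and 56.8 at T18 and 2401, 2287 and 1889 at T21 (log2 fold change 5.99 ± 0.76 (SE), adjusted p = 0.0016). *bgn* (XLOC_024019†), a small proteoglycan, was at 32.5, 28.9 and 40.6 at T18 and 969, 1389 and 1037 at T21 (4.98 ± 0.25, adjusted p = 3.1e-08). *FREM2* (XLOC_027222†), which anchors epidermis to dermis, rose by 4.61 ± 0.40. *SMOC2* (XLOC_050801), a BMP-binding matrix protein, fell from 1301, 1324 and 1601 to 130.4, 147 and 79.6 (log2 fold change -3.66 ± 0.31 (SE), adjusted p = 2.2e-05). The widespread matrix genes *fn1* (XLOC_028729†), of fibronectin, and *lamc1* (XLOC_025457†), of a laminin chain, fell by little (-0.61 ± 0.10, adjusted p = 3.2e-04 and -0.76 ± 0.08, adjusted p = 9.4e-06). Among the enzymes, *ADAMTS14*/*ADAMTS3* (XLOC_014877), which cleaves procollagen, rose by 5.85 ± 0.22, *BAIAP3*/*P4HB* (XLOC_013619), a locus that includes a disulphide isomerase and prolyl hydroxylase subunit, by 4.43 ± 0.26, and *Bmp1* (XLOC_040093†), the procollagen C-proteinase, fell (-1.63 ± 0.11, adjusted p = 2.3e-07), as did *TGM2* (XLOC_052094), a transglutaminase (-1.70 ± 0.36, adjusted p = 0.0023) and *Crtap*/*FKBP9* (XLOC_028687), which includes a partner of prolyl hydroxylation (-1.80 ± 0.14, adjusted p = 9.3e-07). The more abundant *Crtap*/*Fkbp9* (XLOC_028495†) rose (0.78 ± 0.08, adjusted p = 6.0e-06).

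Adhesion genes were mostly higher. Of 43 tested loci of integrins and focal adhesions, 33 were called higher and 6 lower (median 1.16), and of 44 loci of cadherins and junction adhesion 35 and 5 (median 1.38). Of named loci 55.3% were called higher and 25.1% lower. The beta-1 integrin loci divided, with *ITGB1* (XLOC_006853) and the adjacent *ITGB1* (XLOC_006854) falling (-1.32 ± 0.26, adjusted p = 0.003 and -1.36 ± 0.33, adjusted p = 0.0058) and *ITGB1* (XLOC_005236) rising from 0, 1.65 and 3.78 to 97.3, 87.2 and 126 (log2 fold change 5.32 ± 0.78 (SE), adjusted p = 2.6e-04). *ITGA10*/*ITGA11*/*ITGA2* (XLOC_015735), a locus of collagen-binding alpha integrins, was at 104, 76.8 and 77.3 at T18 and 1739, 1744 and 1664 at T21 (log2 fold change 4.33 ± 0.16 (SE), adjusted p = 2.0e-09), and the linker genes *Parvb* (XLOC_001919) and *TNS1* (XLOC_018872†) fell (-1.48 ± 0.36, adjusted p = 0.0057 and -1.28 ± 0.16, adjusted p = 3.8e-05). Other loci of these families rose, among them *PARVB* (XLOC_001972†) (0.88 ± 0.19) and *TENC1*/*TNS* (XLOC_005463†) (3.69 ± 0.31). Cadherin loci of one name also went apart. *cdh4* (XLOC_036193) and *CDH2* (XLOC_065744) fell (-2.26 ± 0.32, adjusted p = 1.1e-04 and -1.55 ± 0.27, adjusted p = 5.8e-04), whereas *Cdh4* (XLOC_052121†) and *CDH2* (XLOC_030300†) rose (1.36 ± 0.19, adjusted p = 8.7e-05 and 1.51 ± 0.23, adjusted p = 2.4e-04). *CadN* (XLOC_032345) rose by 6.77 ± 0.21, and *Fat4* (XLOC_048889), a protocadherin of planar polarity, was at 0, 0 and 0.27 at T18 and 72.0, 56.6 and 97.7 at T21, a ratio of 499 (95% exact counting interval 88.9 to 19759).

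Genes of the secretory pathway were mostly higher, with medians near or below the 0.63 of all named loci. Of 58 tested loci of vesicle coats and secretory transport, 38 were called higher and 4 lower (median 0.45), and of 46 loci of folding and glycosylation in the endoplasmic reticulum (ER), 31 and 4 (median 0.64), or 23 and 8 with upper-quartile scaling. Of named loci 55.3% were called higher and 25.1% lower. *Creb3l1* (XLOC_016876), a factor that raises secretory capacity in matrix-producing cells, was at 308, 292 and 366 at T18 and 805, 952 and 834 at T21 (log2 fold change 1.4 ± 0.14 (SE), adjusted p = 5.4e-06), and the cargo receptor *Lman1* (XLOC_008411) at 106, 76.0 and 94.6 at T18 and 229.6, 266 and 273 at T21 (log2 fold change 1.46 ± 0.21 (SE), adjusted p = 1.1e-04). *TRAPPC9* (XLOC_000478), a tethering subunit, rose by 2.10 ± 0.42. The ER chaperones *hspa5* (XLOC_049252†), *HSP90B1* (XLOC_038873†) and *CALR*/*GLRX* (XLOC_039606†), the last a merged locus with calreticulin, rose by 1.11 ± 0.11, 0.97 ± 0.10 and 0.99 ± 0.08. The stress sensor loci *Ern1* (XLOC_021569) and *Ern1* (XLOC_021568), which adjoin each other, rose by 4.51 ± 0.44 and 3.31 ± 0.26. The largest decrease in the transport list, *sec31a*/*Wnt8a* (XLOC_040147), was a locus where *sec31a* is merged with a Wnt ligand (-4.25 ± 0.27, adjusted p = 9.5e-07), so the count cannot be assigned to either.

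Ribosome biogenesis genes were lower across nearly the whole list. Of 76 tested loci of ribosome biogenesis, 68 were called lower and 3 higher (median -0.82), against 25.1% of named loci lower, and the summed level was 544318 to 570557 normalised counts at T18 and 287197 to 321088 at T21. Upper-quartile scaling gave 70 lower and 3 higher. *ncl* (XLOC_050994), of nucleolin, 1 of the 10 most counted loci of the data, was at 157100, 164425 and 157985 at T18 and 87116, 81499 and 71542 at T21 (log2 fold change -1.02 ± 0.08 (SE), adjusted p = 7.6e-07). *npm1* (XLOC_038120†), of nucleophosmin, was at 13284, 14064 and 14751 at T18 and 5489, 5449 and 5266 at T21 (log2 fold change -1.4 ± 0.08 (SE), adjusted p = 4.6e-08). *Nop56* (XLOC_017766†), a core protein of the particles that guide rRNA methylation, was at 18452, 20108 and 18744 at T18 and 10133, 10172 and 9524 at T21 (log2 fold change -0.96 ± 0.07 (SE), adjusted p = 4.2e-07). At each of these abundant loci, every T21 library lay below every T18 library. *Rrp9* (XLOC_028007†) and the exosome loci *EXOSC10* (XLOC_062559) and *EXOSC10* (XLOC_027340), which process pre-rRNA, fell by similar sizes (-1.09 ± 0.09, adjusted p = 1.6e-06, -1.45 ± 0.30, adjusted p = 0.0019 and -1.63 ± 0.34, adjusted p = 0.0023). The locus that rose most, *KIF6*/*WDR74* (XLOC_053840), joins *WDR74* with a kinesin gene (1.74 ± 0.18, adjusted p = 7.2e-06). Ribosomal proteins and translation factors moved less evenly, with 20 of 32 tested loci called lower and 6 higher (median -0.41), and 3 higher without T18 replicate 2. *EEF1A* (XLOC_002076), an elongation factor locus, was at 693, 695 and 855 at T18 and 56.4, 62.7 and 43.3 at T21 (log2 fold change -3.86 ± 0.20 (SE), adjusted p = 2.6e-08), *RPL7* (XLOC_000078) fell by 0.99 ± 0.12 and *Eif4g3* (XLOC_051024) by 0.75 ± 0.10 on the log2 scale, while *EIF2S3* (XLOC_047446) rose by 3.31 ± 0.76 and *RPS15*/*Vwa5a* (XLOC_054466) by 2.82 ± 0.23.

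Genes of early growth were lower as well. Of 18 tested loci of *Myc*, *Lin28* and early growth genes, 11 were called lower and 2 higher (median -0.59), or 1 higher with upper-quartile scaling, against 25.1% and 55.3% of named loci. The summed level was 137661 to 148082 at T18 and 46441 to 54261 at T21. Much of that sum and its fall came from *RHEB* (XLOC_018532), at 69566 to 79603 at T18 and 12314 to 13489 at T21. *MYCN* (XLOC_003703†), a transcription factor that drives ribosome production and growth, was at 14223, 14833 and 14566 at T18 and 8063, 8234 and 7499 at T21 (log2 fold change -0.89 ± 0.08 (SE), adjusted p = 2.0e-06). *Lin28b* (XLOC_000326†), which blocks maturation of let-7 microRNAs, was at 23623, 22082 and 20886 at T18 and 12489, 10812 and 17245 at T21 (log2 fold change -0.73 ± 0.18 (SE), adjusted p = 0.014), a call that was lost with no filter on low counts and without either T20 library (adjusted p = 0.14, 0.064 and 0.058). *TRIM71* (XLOC_047809), a let-7-regulated gene of early embryos, was at 12927, 14348 and 14089.8 at T18 and 2559, 2641 and 3196 at T21 (log2 fold change -2.31 ± 0.11 (SE), adjusted p = 1.0e-08). *RHEB* (XLOC_018532), the activator of the growth kinase mTOR, and *igf1-a* (XLOC_031838), a growth factor, fell (-2.54 ± 0.09, adjusted p = 2.0e-09 and -1.41 ± 0.22, adjusted p = 3.5e-04). *mycl1a* (XLOC_046771), another Myc family member, rose (2.38 ± 0.28, adjusted p = 2.3e-05).

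Germline and egg genes were mostly lower, with 24 of 31 tested loci called lower and 2 higher (median -1.95), or 1 higher without T21 replicate 3. Of named loci 25.1% were called lower and 55.3% higher. *RBM46* (XLOC_026327), an RNA-binding protein of germ cells, was at 151, 199.9 and 189.5 at T18 and 15.6, 22.9 and 20.7 at T21 (log2 fold change -3.18 ± 0.36 (SE), adjusted p = 2.0e-05). *ZP2* (XLOC_042661), an egg coat protein, was at 102, 85.1 and 131 at T18 and 11.7, 7.65 and 14.8 at T21 (log2 fold change -3.15 ± 0.43 (SE), adjusted p = 9.4e-05). *Boll* (XLOC_061543), a translational regulator of meiosis, was at 151, 153 and 155 at T18 and 31.1, 36.7 and 31.8 at T21 (log2 fold change -2.22 ± 0.33 (SE), adjusted p = 1.8e-04). *nanos1* (XLOC_017772) rose (0.91 ± 0.12, adjusted p = 7.1e-05). At the 3 lowered loci every T21 library was far below every T18 library, and the rule had required that the stages did not overlap there.

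Of 44 tested loci of the cell cycle, 10 were called higher and 19 lower, against 55.3% higher and 25.1% lower of all named loci, and the median was 0.03 with TMM and -0.12 with upper-quartile scaling, against 0.63 for named loci with TMM. *POLA2* (XLOC_034286), a subunit of DNA polymerase alpha, was at 2724, 2621 and 2684 at T18 and 1226, 1119.9 and 1013 at T21 (log2 fold change -1.28 ± 0.09 (SE), adjusted p = 3.9e-07), and the G1 genes *ccnd2* (XLOC_001934) and *CDK6* (XLOC_004977) fell (-1.11 ± 0.09, adjusted p = 6.9e-07 and -0.87 ± 0.09, adjusted p = 1.0e-05). *Cdkn1a* (XLOC_056142), an inhibitor of cell division, was at 425, 348 and 382 at T18 and 1084, 904 and 924 at T21 (log2 fold change 1.32 ± 0.13 (SE), adjusted p = 5.4e-06). *cdk7* (XLOC_030958) rose by 4.08 ± 0.16. Smaller increases were called at other cell cycle loci, among them *Anln* (XLOC_032514†) (0.43 ± 0.08) and *ANLN* (XLOC_010633†) (0.45 ± 0.11). *CIT* (XLOC_009446†) and *HTR4*/*Prc1* (XLOC_017762†) also rose (0.39 ± 0.08 and 0.60 ± 0.10), so the list had no common direction. Of 22 loci of cholesterol synthesis, 14 were called higher and 3 lower (median 0.64), against the same 55.3% and 25.1% of named loci. *TM7SF2* (XLOC_053603), of a late reductase step, rose (4.96 ± 0.51, adjusted p = 4.1e-05), as did *CYP51A1*/*Lss* (XLOC_006807), which joins a demethylase with lanosterol synthase (2.60 ± 0.39, adjusted p = 1.7e-04). *Dhcr7* (XLOC_056047), the enzyme of the last step of the pathway, fell from 1425, 1575 and 1756 to 391, 352 and 396 (-2.08 ± 0.13, adjusted p = 1.3e-07), and *FDFT1* (XLOC_002068) by 0.61 ± 0.10 on the log2 scale.

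Epithelial genes were mostly higher, some by large amounts. Of 49 tested loci of surface ectoderm and epithelia, 38 were called higher and 5 lower (median 2.19), and 3 lower with the 6 libraries alone or with no filter on low counts. Of named loci 55.3% were called higher and 25.1% lower. The keratin locus *Krt8* (XLOC_005424), of simple epithelium, was at 5.00, 8.26 and 7.30 at T18 and 4195, 5384 and 3953 at T21 (log2 fold change 9.25 ± 0.84 (SE), adjusted p = 3.5e-04). *Krt8* (XLOC_028492) was at 748, 246 and 254 at T18 and 74209, 78602 and 67556 at T21 (log2 fold change 7.50 ± 0.81 (SE), adjusted p = 7.8e-04). *KRT9* (XLOC_012581) was at 3.75, 0 and 2.16 at T18 and 146, 162 and 227 at T21 (log2 fold change 6.48 ± 0.52 (SE), adjusted p = 1.0e-06). Secretory epithelial genes behaved likewise. *agr2* (XLOC_018633†), of mucus-producing cells, was at 54.9, 32.2 and 28.9 at T18 and 2899, 3477 and 2899 at T21 (6.42 ± 0.43, adjusted p = 2.7e-05). *MUC5AC* (XLOC_016816†), a mucin, was at 21.2, 2.48 and 6.22 at T18 and 584, 569 and 613 at T21 (6.13 ± 0.43, adjusted p = 9.5e-07). *DSP* (XLOC_068174†), which anchors keratin at desmosomes, and *EHF* (XLOC_016864†), an Ets factor of epithelia, rose by 4.11 ± 0.35 and 5.07 ± 0.30. The epidermal master factor was split between its loci. *TP63* (XLOC_042779†) was at 9555, 8313 and 8804 at T18 and 5290.2, 5053 and 5052 at T21 (-0.81 ± 0.11, adjusted p = 9.8e-05). *Tp63* (XLOC_036782†) was at 68.7, 64.4 and 112 at T18 and 488, 522 and 432 at T21 (2.49 ± 0.24, adjusted p = 4.8e-06). *Cldn19* (XLOC_006803), a tight junction gene, fell (-1.44 ± 0.14, adjusted p = 7.7e-06). *CLDN3* (XLOC_061419) was called lower (-0.94 ± 0.22, adjusted p = 0.013), a call that was lost with the 6 libraries alone, with no filter and without either T20 library (adjusted p of 0.071 to 0.11). All epithelial loci named here had counts at both stages, and the share of epidermis in the tissue was not tested.

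Of 45 tested loci of muscle genes, 27 were called higher and 10 lower (median 1.09), near the shares of all named loci. *CKM* (XLOC_011468), the muscle creatine kinase, was at 0, 0 and 1.08 at T18 and 60.3, 61.2 and 37.4 at T21 (log2 fold change 6.13 ± 0.83 (SE), adjusted p = 8.4e-05). *Des* (XLOC_018897), the intermediate filament of muscle, was at 0, 4.13 and 1.35 at T18 and 81.7, 79.6 and 90.7 at T21 (log2 fold change 5.44 ± 0.61 (SE), adjusted p = 1.7e-05). The far more abundant *DES* (XLOC_055111†) was at 1350, 1153 and 1803 at T18 and 1601, 1681 and 1647 at T21 and was not called (0.17 ± 0.14, adjusted p = 0.41). *Flna*/*Flnc* (XLOC_060341) rose by 4.32 ± 0.31. The myosin genes *MYL4* (XLOC_028567) and *MYH7* (XLOC_005088) and the sarcomere ligase *TRIM55* (XLOC_037428) fell (-2.70 ± 0.42, adjusted p = 2.6e-04, -1.99 ± 0.32, adjusted p = 3.7e-04 and -2.03 ± 0.44, adjusted p = 0.003). No named locus carried the myogenic factors *MYOD1* or *MYF5*. Of 18 loci of endoderm, endothelium and blood, 12 were called lower and 3 higher (median -2.01), against 25.1% and 55.3% of named loci. *SOX17* (XLOC_003290†), a factor of endoderm, was at 69.9, 55.3 and 143 at T18 and 5.84, 22.9 and 5.55 at T21 (-3.14 ± 0.66, adjusted p = 0.0029). *LYVE1* (XLOC_016653), of lymphatic endothelium, was at 1.25, 0.826 and 0.811 at T18 and 368, 441 and 362 at T21 (log2 fold change 8.62 ± 0.52 (SE), adjusted p = 9.0e-08). *gata2* (XLOC_027833), which also acts in non-neural ectoderm, rose by 1.42 ± 0.18. Other loci of that name did not, since *GATA2* (XLOC_050056†) fell (-1.21 ± 0.21, adjusted p = 6.9e-04) and *Gata2* (XLOC_038937†) was not called (-0.45 ± 0.21, adjusted p = 0.13).

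Of 59 loci of motile cilia, 33 were called higher and 10 lower (median 1.03), the first a share near that of all named loci. The 2 loci of the ciliogenesis master factor went in opposite directions. *foxj1b* (XLOC_021358) was at 56.2, 277 and 333 at T18 and 1.95, 0 and 2.96 at T21 (log2 fold change -6.63 ± 1.16 (SE), adjusted p = 0.0029), with T18 replicate 1 the lowest at T18, and *Foxj1* (XLOC_003730) was at 58.7, 90.8 and 44.1 at T18 and 605, 422 and 513 at T21 (log2 fold change 3.00 ± 0.25 (SE), adjusted p = 1.5e-06). *DNAH5*/*Dnah8* (XLOC_006864) and *DNAH3* (XLOC_012934), of dynein heavy chains, rose by 2.45 ± 0.18 and 2.44 ± 0.38, and *IQCA1* (XLOC_006680) fell (-3.11 ± 0.65, adjusted p = 0.0024). Of 58 tested loci of antiviral and innate immune genes, 46 were called higher and 4 lower (median 1.82), the lower count being 1 or 2 under several alternatives. The shares of named loci were 55.3% and 25.1%. Their summed level was 18667 to 20873 at T18 and 62432 to 79526 at T21. *IL17B* (XLOC_040894) and *IL17B* (XLOC_040622), of interleukin 17 ligands, rose from 0 in all T18 libraries to 115, 216 and 228, at least 49.7-fold, and from 28.7, 53.7 and 43.3 to 2043, 4316 and 3511 (6.23 ± 0.46, adjusted p = 6.2e-05). *NOS2* (XLOC_035850†), the inducible nitric oxide synthase, was at 1085, 542 and 454 at T18 and 17116, 17063 and 15987 at T21 (log2 fold change 4.60 ± 0.37 (SE), adjusted p = 1.4e-04). *CXCL8* (XLOC_005054†), a chemokine, was at 166, 258 and 105 at T18 and 1134, 1931 and 1516 at T21 (3.14 ± 0.35, adjusted p = 3.2e-04). *TNF* (XLOC_049239†) was at 12.5, 14 and 16.2 at T18 and 85.6, 187 and 173 at T21 (3.33 ± 0.34, adjusted p = 8.4e-06). *Epsti1* (XLOC_041654†) and *Cmpk2* (XLOC_001703†), which interferon induces, were at 0 in every T18 library and at 11.7, 65.8 and 34.1 and at 17.5, 29.1 and 34.4 at T21, at least 9.92-fold and 7.21-fold higher.

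Named loci outside these lists with large differences included *Cdcp2* (XLOC_024774), which encodes a CUB-domain protein, at 2.5, 0.826 and 17.3 at T18 and 17293, 18482 and 16591 at T21 (log2 fold change 10.61 ± 0.96 (SE), adjusted p = 3.6e-04), *LRRTM3* (XLOC_017758), a synaptic adhesion gene, at 0 in all T18 libraries and 91.4, 125 and 86.2 at T21, at least 27.0-fold higher, and *qkib* (XLOC_048294), which encodes an RNA-binding protein of the Quaking family, from 0 to 83.7, 138 and 185, at least 36.2-fold higher. *Psmc3ip* (XLOC_006872) fell from 472, 606 and 1007 to 1.95, 3.06 and 3.70 (log2 fold change -7.69 ± 0.46 (SE), adjusted p = 2.2e-07) and *NDUFA13* (XLOC_008073) from 2101, 1787 and 2067 to 29.2, 18.4 and 15.5 (log2 fold change -6.74 ± 0.39 (SE), adjusted p = 2.1e-06). The naming rule required that the stages did not overlap at these named loci. Of loci without a name, XLOC_021622, a spliced locus on the minus strand at scaf_00019:7936629-7969105, was at 0 in every T18 library and at 89.5, 124 and 113 at T21, at least 29.0-fold higher, and XLOC_017261, with 1 exon at scaf_00014:11759851-11761067, at 0 and at 77.8, 88.7 and 85.5, at least 22.4-fold higher. XLOC_018767, at scaf_00016:7789718-7985238, fell from 1587, 1753 and 1684 to 17.5, 4.59 and 3.33 (log2 fold change -8.17 ± 0.54 (SE), adjusted p = 8.3e-06), and XLOC_048575, at scaf_00061:4706530-4712314, from 627, 2097 and 2708 to 3.89, 1.53 and 1.85 (log2 fold change -9.72 ± 1.31 (SE), adjusted p = 0.0021). At the last of these T18 replicate 1 was well below the other T18 libraries.

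Of the 10 loci with the most counts, 7 were called lower, 1 higher and 2 not at all. The one that rose, *Actin* (XLOC_013671), went from 0.366% of all counts at T18 to 0.711% at T21, with levels of 95475, 87302 and 88197 at T18 and 165067, 166231 and 167837 at T21 (log2 fold change 0.86 ± 0.11 (SE), adjusted p = 4.9e-05). *HSP90AA1* (XLOC_011822), of a cytosolic chaperone, was at 179556, 181419 and 174295 at T18 and 152443, 151581 and 144109 at T21 (log2 fold change -0.27 ± 0.09 (SE), adjusted p = 0.027), a call that was lost with DESeq2 and without any single T18 or T21 library (adjusted p of 0.061 to 0.092). *HEXBP* (XLOC_038867), which encodes a nucleic acid-binding protein, was at 90277, 104482 and 96893 at T18 and 67059, 72738 and 65926 at T21 (log2 fold change -0.52 ± 0.08 (SE), adjusted p = 3.4e-04). *MRPS2*/*RPL5*/*rpl5-a* (XLOC_059193), a locus joining a large ribosomal protein with a mitochondrial one, was at 90578, 87958 and 88900.1 at T18 and 60537, 60592 and 58791 at T21 (log2 fold change -0.59 ± 0.09 (SE), adjusted p = 1.9e-04). The 100 most counted loci of a library held 19.3% to 19.6% of its counts at T18 and 17.0% to 17.3% at T21, ranges that did not overlap.

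Calls varied with the structure of the locus, but the classes also differed in level. Of 17630 tested loci with more than 1 exon, 23.5% were called higher and 18.2% lower, and of 7687 loci with 1 exon 8.36% and 6.57%. Loci with no strand in the transcriptome were called less often, with 9.13% higher and 6.46% lower of 5902. A start was assigned to 19415 loci with a strand, and 15382 of these had a consensus ATAC-seq peak, an interval of accessible chromatin, within 1000 bases of the start. Of the loci with such a peak 21.5% were called higher and 17.9% lower, and of the 4033 without 23.5% and 14.5%. The peaks were called on T20 and T21 DNTs and T23 heads together and none on T18, so accessibility at T18 was not measured. In the least abundant of the 4 groups the share called higher was 11.5% with a peak and 17.1% without, and in the most abundant 20.8% and 22.3%.

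Adjacent loci often moved together. Of 193 pairs of neighbouring loci on the same strand, at most 1 kb apart and both called, 88.1% were called in the same direction, against 54.1% of 98 such pairs on opposite strands. The correlation of log2 fold changes over tested pairs of these kinds, given as a description since adjoining loci can be pieces of a gene and share reads, was 0.72 and 0.12. For pairs 20 to 100 kb apart, the same direction was found for 57.8% of 282 pairs on the same strand and 60.9% of 233 on opposite strands. Of 272 adjacent pairs that shared a gene name and were both called, 89.7% went the same way.

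**Figure D5:**
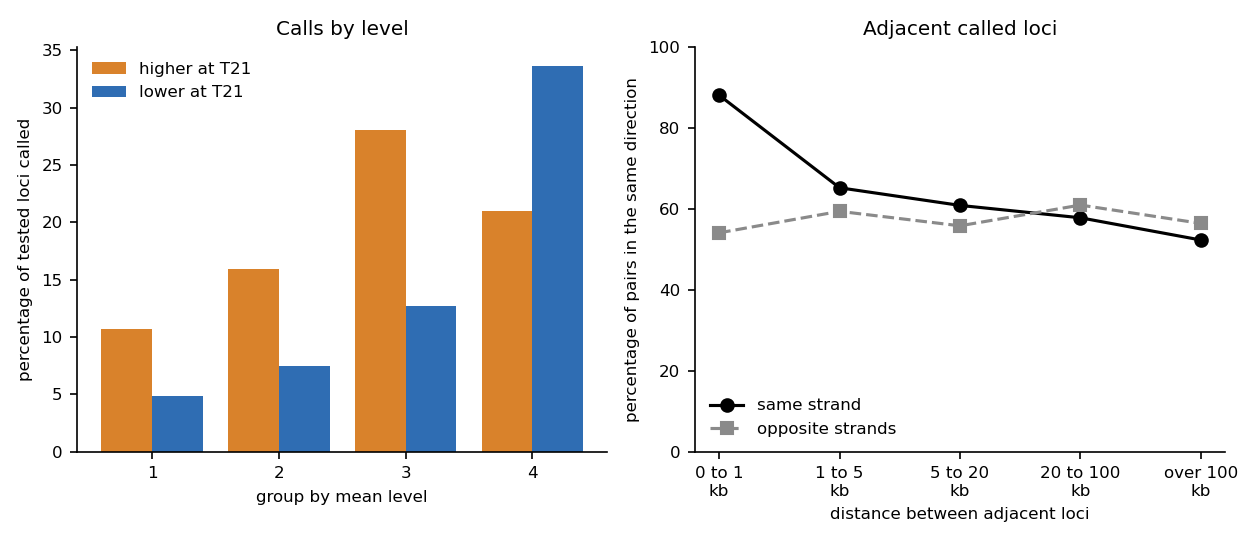
Left, percentage of tested loci called higher (orange) and lower (blue) at T21 by mean level, in 4 groups of equal size from the least (1) to the most (4) abundant. Right, percentage of adjacent pairs, both called, with the same direction, by distance and strand. The share called lower rises from 4.90% in the first group to 33.6% in the fourth, and same-strand pairs within 1 kb stand out at 88.1%.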

How the data were processed

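Poly(A) RNA-seq libraries of sea lamprey dorsal neural tubes were compared between 3 pools of T21 and 3 of T18 embryos, grouped by the stage in the labels. Reads were trimmed by the authors (Sickle) and aligned with STAR 2.4.2 to the germline genome of the sea lamprey. A transcriptome was assembled with Cufflinks and Cuffmerge, and the authors deposited raw fragment counts per locus from featureCounts 1.4.6-p4, with both ends mapped, multi-mapping fragments counted and strand used. Multi-mapping fragments can raise the counts of near-identical loci together, and the 40780 loci without a strand held 1.34% of the counts. The normalised counts, a signal without length correction, were deposited by the authors as counts divided by the DESeq2 1.8.2 size factor of each library. The header of the count table was shifted by 1 field, so each column was taken by its position, which was checked through its constant ratio to the normalised counts. The supplementary tables that supplied symbols also hold the authors' fold changes and p-values, which were not used. The ATAC-seq peak intervals were merged by the authors over stages and replicates and carry no score. Positions are 1-based on the sea lamprey germline assembly.

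Counts were fitted with edgeR 4.0.16 in R 4.3.3 (TMM scaling, filterByExpr by stage, robust quasi-likelihood F test of T21 minus T18, stage as the only term, 8 libraries with 2 of T20), two-sided, with Benjamini-Hochberg adjustment over all 25317 loci tested. DESeq2 1.42.0 was an alternative, and 18 settings were run in all. Tables and figures were made with Python 3.11.15, numpy 2.4.6, pandas 2.3.3, scipy 1.17.1 and matplotlib 3.10.9. The fit was tested on simulated data. Total counts were 19750785 to 91015285 at T18 and 12172421 to 61222575 at T21. Intervals and floors cover counting error only, and a floor is 3 counts in the shallowest library of the stage.

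Symbols were attached from supplementary tables of the study, which are held only in part. The comparison, its 35 gene lists (1309 tested loci) and the naming rule were chosen with earlier results of these data known. The rule named, in each list, the 3 called loci with the largest change in each direction, with a mean of at least 50 normalised counts in the higher stage and no overlap of libraries. In lists of at most 12 loci it would name all, and across the data it added the 10 largest changes of named loci in each direction and the 10 most counted loci. The text describes 166 of the 193 loci that the list rule gave. The loci with a dagger were chosen after their values were seen. T20 levels are shown in figures and were not compared. Some items are not reported here.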

Additional observations from a re-analysis of the deposited data

How the results depend on the processing

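With a threshold of 0.01 on the adjusted p, 2429 loci were lower at T21 in place of 3717, and with an added log2 fold change of more than 1 in size 4565 were called in place of 8509, of which 1313 were lower. DESeq2 called 8660 loci, the 6 libraries alone 9873, counts thinned to the shallowest library 7867, no filter on low counts 9319, a stricter filter 8277 and RLE scaling 8443. Upper-quartile scaling gave 4051 higher and 5258 lower calls, against 4792 and 3717. Leaving out 1 library at a time gave 6684 to 10471 calls, 3813 to 5716 higher and 2808 to 4799 lower. The highest of these came without a T20 library. The T20 libraries correlated with each other at 0.931 on log2 normalised counts, against 0.965 to 0.981 within T18 and 0.967 to 0.973 within T21.

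The labels share replicate numbers between stages but do not say that a number marks a common origin. Deviations of libraries with the same number correlated at 0.044, 0.0015 and 0.080 over loci, and those with different numbers at -0.076 to 0.024. T18 replicates 1 and 3 correlated best with the T21 library of the same number, and T18 replicate 2 with T21 replicate 3 (0.019). Correlations this small do not decide whether the numbers pair the samples, and the main fit had no pairing. With a replicate block 8157 loci were called, 4594 higher and 3563 lower, and among 294 of the loci described 1 call was lost.

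Of 294 of the loci described, 285 kept their call and direction under each of 16 settings, 7 lost a call under at least 1 and 0 reversed. Most loci described were named for large, separated changes or after their values were seen. Kept calls among them, here and with the replicate block, therefore do not describe loci in general. Of 70 list counts, 8 moved by more than 1.5 times under some setting. Log2 fold changes of loci with few counts at a stage are the least precise, and the number of pools limits all of them.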
